A study of Mus musculus with 12 samples.

Results

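The hippocampus is not uniform, and a tissue block taken from it can hold different amounts of each subfield and of the structures around it. Expression of 36 genes that mark hippocampal subfields and neighbouring tissue was therefore followed in each of 12 hippocampal libraries from WT and USF-1 KO mice. The 36 genes were chosen by name and fall into 8 lists, namely dentate gyrus (7 genes), CA1 (5), CA2 (4), CA3 (4), subiculum (3), cortex (4), thalamus and habenula (7) and pyramidal neurons of several regions (2). All 36 were found among the 55487 genes of the deposited table, and all 36 passed the limit of a mean normalised count of at least 10, as did 18221 genes in all.

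Hippocampi of 6 WT mice (4 females and 2 males) and 6 USF-1 KO mice (2 females and 4 males), aged 3 to 4 months, were sequenced with 1 library per mouse. The mice were C57Bl/6JRccHsd littermates from crosses of heterozygous USF-1 deficient animals, and the KO is constitutive and not restricted to a tissue or cell type. The study's figure legend gives another split of the sexes, and the covariate for sex was taken from the labels. According to the methods, animals lived in single cages ahead of behavioural tests and were killed by cervical dislocation. The labels and methods do not say whether a library holds 1 hippocampus or both, nor which mice were dissected together. The targeted gene, Usf1, ran from 842 to 1583 normalised counts in the WT and from 117 to 163 in the USF-1 KO libraries (log2 fold change −3.29, SE 0.14, adjusted p = 1.77e-08 from limma). Values are normalised counts, that is, reads on a gene scaled by the library's size factor, and depth ranged from 21679622 to 32091173 reads on genes. In bulk tissue, fewer cells of a type and less RNA per cell cannot be told apart.

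In the adult hippocampus, granule cells of the dentate gyrus send mossy fibres to CA3, CA3 pyramidal neurons project to CA1, and CA1 projects to the subiculum, with the small CA2 field between CA3 and CA1. Each of these cell groups keeps its own set of transcription factors, adhesion molecules and signalling proteins, which is why single genes can serve as markers of a field. Cortex lies above the dorsal hippocampus, and the habenula and dorsal thalamus lie beneath it, so that genes of those structures in a hippocampal library can mark tissue taken along with it. Many of the markers are also expressed at lower levels elsewhere, Pcp4 and Rora among them.

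USF-1 binds the E-box CACGTG, a sequence that is its own reverse complement. Promoter windows of RefSeq on GRCm38.p6, from 250 bases before to 50 bases after a transcript start, were found for 30 of the 36 genes and not for Calb1, Pou3f1, Rgs14, Map3k15, Fn1 and Calb2. The E-box was present in the windows of 4 of the 30 genes (13.3%) and of 2187 of 27025 genes with a window in all (8.09%). Counted by window, since a gene can have several starts, it was in 4 of 43 windows of these genes (9.3%) and in 7.15% of all windows. It was in 1 of 4 windows of Lef1, 1 of 2 of Cpne4, 1 of 2 of Prkcd and the only window of Zic1. The 4 genes were Lef1, Zic1 and Prkcd of the thalamus and habenula list and Cpne4 of the CA3 list, and their 250 bases before the start are printed because USF-1, the factor deleted in the KO mice, recognises this motif. Capitals mark the E-box, and sequences run 5′ to 3′ on the strand of the gene. The starts used for Lef1 and Cpne4 lie inside the gene as the deposited coordinates delimit it.
Lef1 (chr3:131156044-131156293, forward strand): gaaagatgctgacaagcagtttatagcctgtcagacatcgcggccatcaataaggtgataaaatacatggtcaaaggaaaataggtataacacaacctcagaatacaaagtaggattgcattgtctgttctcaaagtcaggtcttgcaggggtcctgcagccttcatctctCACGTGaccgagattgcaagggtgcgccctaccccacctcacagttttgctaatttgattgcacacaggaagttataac
Zic1 (chr9:91365769-91366018, reverse strand): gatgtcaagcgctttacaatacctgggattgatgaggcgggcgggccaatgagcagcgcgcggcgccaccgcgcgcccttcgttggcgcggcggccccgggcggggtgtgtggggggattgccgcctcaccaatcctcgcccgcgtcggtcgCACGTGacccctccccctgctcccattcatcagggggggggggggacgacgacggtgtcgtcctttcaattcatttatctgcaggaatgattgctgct
Prkcd (chr14:30626209-30626458, reverse strand): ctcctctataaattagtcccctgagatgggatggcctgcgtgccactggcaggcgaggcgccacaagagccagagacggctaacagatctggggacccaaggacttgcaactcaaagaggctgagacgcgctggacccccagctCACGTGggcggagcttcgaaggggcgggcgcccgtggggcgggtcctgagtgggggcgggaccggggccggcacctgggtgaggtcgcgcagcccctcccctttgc
Cpne4 (chr9:104569405-104569654, forward strand): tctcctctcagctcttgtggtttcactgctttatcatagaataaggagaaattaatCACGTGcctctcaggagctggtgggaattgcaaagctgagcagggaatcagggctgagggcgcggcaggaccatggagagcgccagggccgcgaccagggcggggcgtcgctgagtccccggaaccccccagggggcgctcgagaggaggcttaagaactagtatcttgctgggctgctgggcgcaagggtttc
The first base of the E-box lay 79, 98, 106 and 194 bases before the start in Lef1, Zic1, Prkcd and Cpne4. A match of these letters is a description of the sequence and does not show that USF-1 binds there. None of the 4 genes passed the test between genotypes, as given with the genotype comparison.

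Levels between genes were compared per kilobase of exon, as the mean normalised count of the 12 mice divided by the length of the gene's exons. Neurod6, a transcription factor of excitatory neurons of the forebrain, was highest at 2260 counts per kilobase, followed by the CA1 genes Mpped1 (1496), Wfs1 (1324) and Fibcd1 (1111) and the dentate gene C1ql2 (1060). Rgs14 of CA2 stood at 819 and Bok of CA3 at 748 counts per kilobase. Prox1, the anchor gene of the dentate gyrus, had 317 counts per kilobase. The cortical genes Lamp5 (355) and Fezf2 (309) and Calb2 of the thalamus and habenula list (338) were close to it. The thalamic anchor Tcf7l2 had 28.1, the cortical anchor Rorb 46.0 and the CA2 gene Map3k15 19.5, and the lowest was Lef1 at 17.6. The order of levels per kilobase therefore did not separate hippocampal from neighbouring tissue genes. Defining markers of dentate gyrus, CA1, CA2 and CA3 were present in every library.

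**Figure D1:**
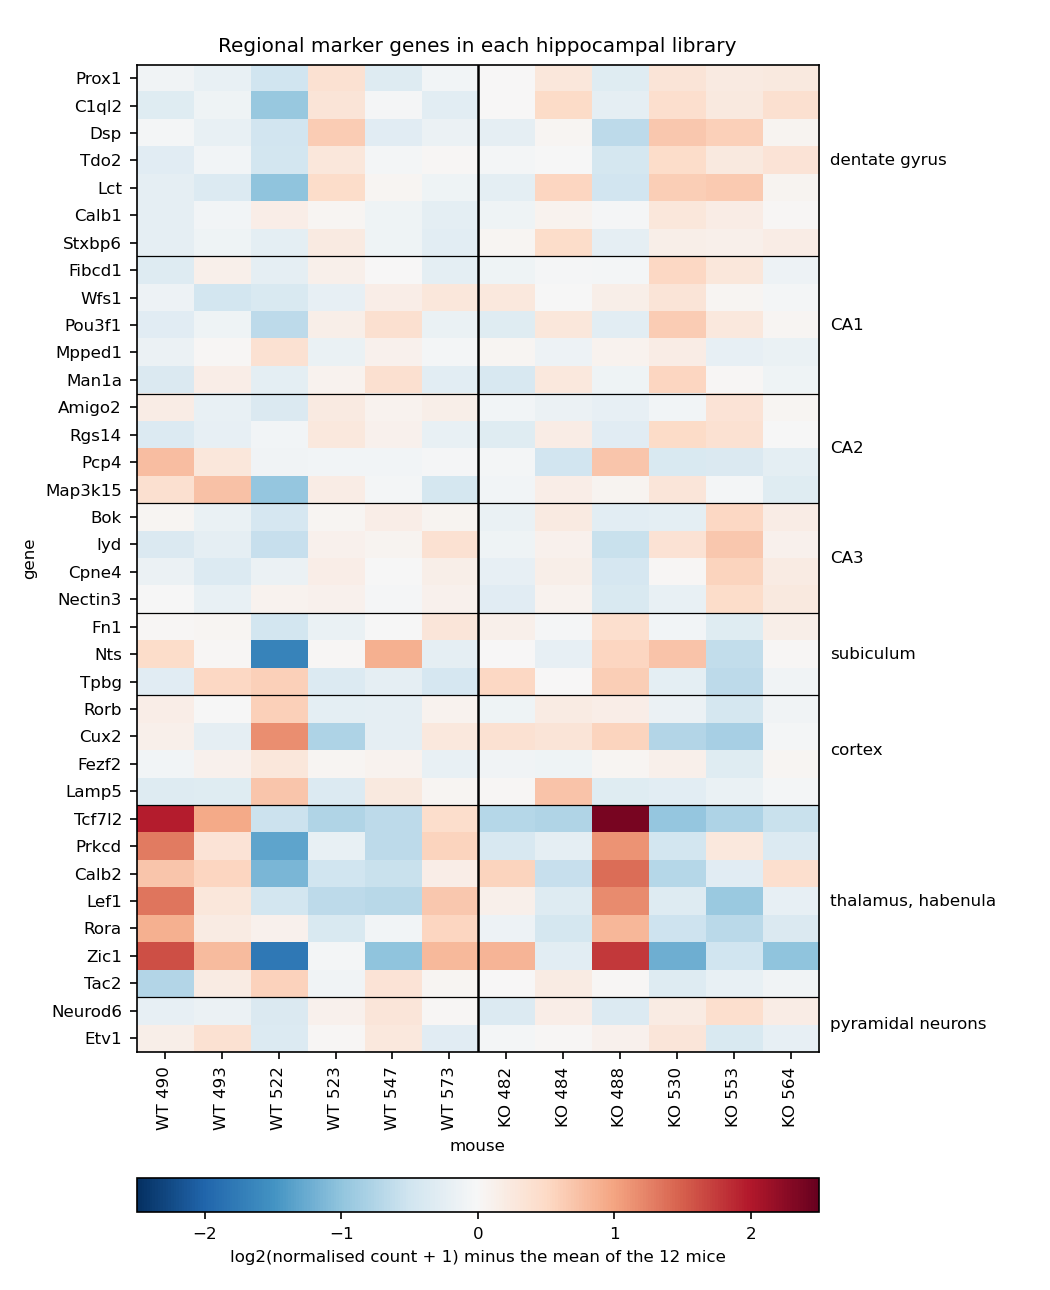
Each row is 1 of the 36 genes, each column 1 mouse, and the colour gives log2(normalised count + 1) minus the gene's mean over the 12 mice. WT 490 and KO 488 are red for most thalamic genes, WT 522 is red for cortical genes and blue for most dentate genes, and the vertical line between WT and USF-1 KO mice separates no block of genes.

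The markers varied more between mice than most genes did. The SD over the 12 mice of log2(normalised count + 1) had a median of 0.32 over the 36 genes and of 0.16 over all genes tested. It lay above the median of all genes for 35 of the 36, the exception being Fezf2, and above their 90th percentile for 9. Those 9 were Lct of the dentate gyrus (SD 0.50), Nts of the subiculum (0.68), Cux2 of the cortex (0.59) and 6 of the 7 genes of the thalamus and habenula list, with SDs from 0.53 for Rora to 1.16 for Tcf7l2 and Zic1.

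Dentate gyrus markers differed up to 3.20-fold between mice, and most were lowest in WT 522 and KO 488. Prox1, the homeodomain factor that keeps the identity of granule cells, had normalised counts from 1841 to 3381 in WT mice (median 2375) and from 2122 to 3259 in USF-1 KO mice (median 3092). WT 522 was the lowest of the 12 and WT 523 the highest. Lct, which encodes lactase and marks granule cells in mouse hippocampus, ran from 721 to 1993 in WT mice (median 1304) and from 1051 to 2305 in USF-1 KO mice (median 1823). Its lowest value was again that of WT 522, and KO 488 was the lowest of its genotype. Dsp, the desmosomal protein desmoplakin, ran from 979 to 2112 in WT mice (median 1218) and from 869 to 2178 in USF-1 KO mice (median 1422). Tdo2, an enzyme of tryptophan breakdown, ranged from 95.4 to 183 normalised counts over the 12 mice. Calb1, the calcium buffer calbindin, did not follow the other dentate genes and ranged only from 2057 to 2982, with WT 522 the highest of the WT mice at 2756. C1ql2, a secreted synaptic protein of mossy fibres, and Stxbp6, a SNARE-binding protein, are described with the genotype comparison.

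CA1 markers spread less, with a median SD of 0.26 on the log2 scale against 0.30 for the dentate genes, and most were highest in KO 530. Wfs1, wolframin of the endoplasmic reticulum and the classical marker of dorsal CA1, had normalised counts from 3595 to 6016 in WT mice (median 4433) and from 4801 to 6205 in USF-1 KO mice (median 5286). Pou3f1, a POU-domain transcription factor, ran from 778 to 1607 in WT mice (median 1108) and from 980 to 1894 in USF-1 KO mice (median 1357). Man1a, a mannosidase that trims N-glycans, ran from 1343 to 2263 in WT mice (median 1637) and from 1305 to 2493 in USF-1 KO mice (median 1675). KO 530 was the highest of the 12 mice for Wfs1, Pou3f1, Man1a and Fibcd1, a chitin-binding membrane protein that ranged from 4161 to 7441. Mpped1, a metallophosphoesterase-domain protein, went the other way, with WT 522 highest at 8315 and KO 553 lowest at 5547.

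The genes listed for CA2 did not form a single pattern. Amigo2, an adhesion molecule of CA2 neurons, had normalised counts from 440 to 666 in WT mice (median 616) and from 490 to 716 in USF-1 KO mice (median 542), with WT 522 the lowest. Map3k15, a kinase, ran from 40.9 to 136 in WT mice (median 86.0) and from 66.1 to 101 in USF-1 KO mice (median 82.2), again with WT 522 the lowest. Rgs14, which limits synaptic plasticity in CA2, ranged from 2698 in WT 490 to 4730 in KO 530. Pcp4, a calmodulin-binding protein that CA2 shares with thalamus and deep cortex, had 1240 in WT 490, 877 in WT 493 and between 683 and 709 in the other WT mice. In USF-1 KO mice it had 1178 in KO 488 and between 521 and 700 in the others. WT 490 and KO 488 were thus apart from the other mice for Pcp4, as they were for Tcf7l2 of the thalamus, and not for Amigo2, where they had 644 and 490.

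CA3 markers were highest in KO 553. Bok, a BCL2-family protein, had normalised counts from 1020 to 1515 in WT mice (median 1402) and from 1129 to 1933 in USF-1 KO mice (median 1373). Iyd, iodotyrosine deiodinase, ran from 61.3 to 120 in WT mice (median 87.7) and from 61.8 to 148 in USF-1 KO mice (median 99.1). Cpne4, a calcium-dependent phospholipid-binding copine, ran from 2120 to 2991 in WT mice (median 2539) and from 2004 to 3934 in USF-1 KO mice (median 2849). Nectin3, an adhesion molecule, ranged from 645 to 1160 over the 12 mice. KO 553 was the highest of the 12 mice for 4 of these 4 genes, and KO 488 was the lowest of the USF-1 KO mice for 4 of 4.

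Both genes of pyramidal neurons of several regions spread less than 2-fold. Neurod6 had normalised counts from 3745 to 5859 in WT mice (median 4602) and from 3759 to 6432 in USF-1 KO mice (median 5371). Etv1, an ETS-family transcription factor, ran from 1841 to 3035 in WT mice (median 2477) and from 1788 to 2887 in USF-1 KO mice (median 2322). WT 522 was the lowest of the WT mice for both.

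The 3 subiculum genes were lowest among the USF-1 KO mice in KO 553, with 3 of 3 below every other mouse of that genotype, and 2 of 3, Fn1 and Tpbg, were highest of the 12 mice in KO 488. Fn1, fibronectin, a marker of dorsal subiculum, had normalised counts from 978 to 1658 in WT mice (median 1356) and from 1100 to 1794 in USF-1 KO mice (median 1394). Nts, the neuropeptide neurotensin, ran from 32.9 to 199 in WT mice (median 109) and from 69.2 to 175 in USF-1 KO mice (median 109). WT 522 was the lowest of the 12 mice for Fn1 and Nts. Tpbg, a membrane glycoprotein that acts in Wnt signalling, ran from 70.0 to 142 in WT mice (median 78.0) and from 59.4 to 145 in USF-1 KO mice (median 91.3). Here WT 522 was the highest WT mouse, unlike for Fn1 and Nts, and KO 553 was the lowest of all.

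Cortical markers were highest in WT 522. Rorb, a nuclear receptor of cortical layer 4, had 757 normalised counts in WT 522 and between 425 and 562 in the other WT mice, and ran from 371 to 580 in USF-1 KO mice (median 469). Cux2, a homeodomain factor of the upper cortical layers, had 2282 in WT 522 and between 600 and 1227 in the other WT mice, and ran from 574 to 1508 in USF-1 KO mice (median 1140). Lamp5, a membrane protein of cortical neurons, had 1629 in WT 522 and between 794 and 1187 in the other WT mice. Among the USF-1 KO mice Lamp5 was 1646 in KO 484 and between 815 and 1030 in the others. Fezf2, which specifies subcortical projection neurons of layer 5, ranged only from 755 to 1134, with WT 522 again the highest. KO 484 was the highest USF-1 KO mouse for Rorb as well, at 580, but not for Cux2, at 1288.

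Thalamic genes showed the widest spread, set by WT 490 and KO 488. Tcf7l2, a Wnt-pathway transcription factor expressed strongly in thalamus and habenula, had 893 normalised counts in KO 488, 672 in WT 490, 329 in WT 493 and 231 in WT 573, and between 87.4 and 117 in the other 8 mice. Zic1, a zinc-finger transcription factor of medial thalamus and septum, had 919 in KO 488 and 816 in WT 490, and was lowest in WT 522 at 77.2. Prkcd, protein kinase C delta, a marker of first-order thalamic nuclei, ranged from 335 in WT 522 to 2057 in WT 490 and had 1820 in KO 488. Lef1, a partner of Tcf7l2 in Wnt signalling, had 345 in WT 490 and 308 in KO 488 and no more than 216 in any other mouse. Rora, a nuclear receptor of thalamic relay neurons, had 1751 and 1678 in these mice and between 590 and 1380 in the others. Calb2, calretinin, had 1367 in KO 488 and 844 in WT 490, with 765 in KO 482, which was not high for Tcf7l2 (104). Scores of 5 mossy cell genes were 0.51 in KO 488, 0.32 in KO 482 and 0.16 in WT 490. The part of mossy cells in the Calb2 values was not tested. Tac2, which encodes neurokinin B and is a marker of the medial habenula, did not follow, since WT 490 was the lowest mouse at 42.9 and WT 522 the highest at 107. Of the 7 genes, 6 were therefore above all other WT mice in WT 490 and above all other USF-1 KO mice in KO 488, 1 mouse of each genotype.

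**Figure D2:**
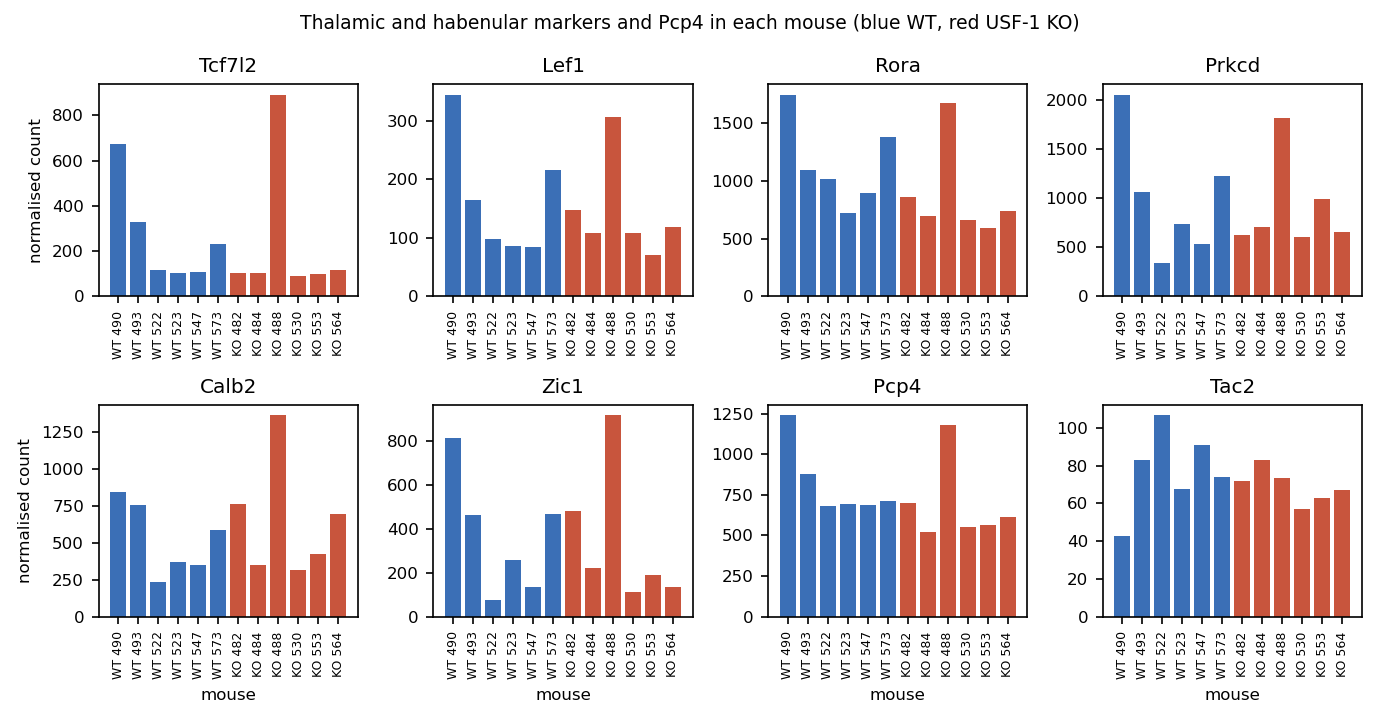
Bars give the normalised count in each mouse for the thalamus and habenula list and for Pcp4, each panel with its own axis from 0. WT 490 and KO 488 stand highest for every gene but Tac2, where WT 490 is the lowest at 42.9.

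KO 488 and WT 490 also had the highest scores of further thalamic genes, a list chosen with earlier results of these data known. Of the 13 further thalamic genes listed, 12 were tested, and their score, formed in the same way as the region scores described further on, was 1.10 in KO 488 and 1.05 in WT 490, against 0.45 or less in the other mice. The 7 further habenula genes that passed the limit had scores of 0.08 and 0.19 in KO 488 and WT 490, inside the range of the other mice, which ran up to 0.29 in WT 573. Among all genes tested, the 5 with the highest Pearson r to Tcf7l2 over the 12 mice were Rgs16, Amotl1, Tnnt1, Plekhd1 and Ramp3 (r from 0.96 to 0.97), and without WT 490 and KO 488 their r was between 0.87 and 0.95. Tnnt1, a slow troponin T, ran from 24.7 to 367 and Rgs16, a regulator of G-protein signalling, from 125 to 699 normalised counts, both with KO 488 highest. The 5 genes were picked by r with Tcf7l2 over the same 12 mice, so they are no separate support. Rgs16 and Ramp3 are also among the further thalamic genes. Choroid plexus markers, which mark another tissue that borders the hippocampus, were in turn highest in WT 493 and WT 490, with 149554 and 52017 normalised counts of Ttr, transthyretin, against 139 to 1530 in the other mice. Kcne2, a potassium channel subunit of choroid plexus, had 894 in WT 493 and was at 0 in WT 522.

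Each list was summarised by a region score, for which the average of the 12 mice was subtracted from log2(normalised count + 1) of each gene and the differences were averaged over the list, so that a score of 1 stands for a 2-fold higher level than the average mouse. The scores ranged over 1.90 between mice for thalamus and habenula, 1.11 for cortex, 1.05 for subiculum, 0.96 for CA3, 0.91 for dentate gyrus, 0.69 for CA1 and 0.63 for CA2 and for pyramidal neurons. KO 488 had the highest thalamic score (1.24), the highest subicular score (0.53) and the lowest CA3 score (−0.41). KO 530 was highest for dentate gyrus (0.42) and CA1 (0.44), and was above all other USF-1 KO mice in 14 of the 36 genes. KO 553 was highest for CA3 (0.55) and lowest for cortex (−0.44) and subiculum (−0.52). KO 564 stood highest or lowest of the 12 mice for 0 of the 36 genes. In each list the scores of single mice of 1 genotype ranged more widely than the genotype means differed. A range of single mice nearly always exceeds a difference of means, so this cannot decide whether the genotypes differ. For dentate gyrus the means were −0.13 in WT (SD 0.27) and 0.13 in USF-1 KO mice (SD 0.28).

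**Figure D3:**
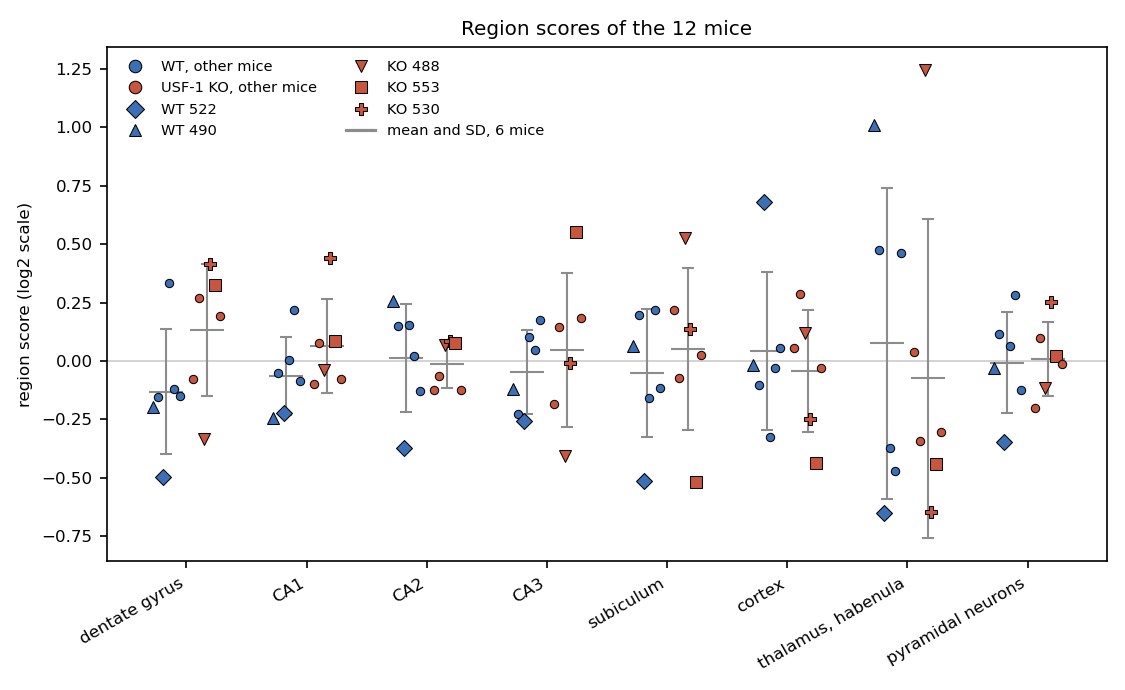
Region scores of the 8 lists on the log2 scale, with WT mice in blue and USF-1 KO mice in red, and the mean and SD of 6 mice in grey. WT 522 is apart upwards in cortex (0.68) and lies low in dentate gyrus, CA2, subiculum and pyramidal neurons, and KO 488 (1.24) and WT 490 (1.01) are apart in thalamus and habenula.

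WT 522 differed from the other WT mice in 2 directions. Its cortex score was 0.76 above the mean of the other 5 WT mice (1.70-fold; SD of those 5 mice 0.15), with 4 of 4 cortical genes above every other WT mouse and 3 of 4 the highest of all 12 mice. Its dentate gyrus score was 0.44 below the mean of the other WT mice (SD 0.22), with 5 of 7 genes below every other WT mouse, and the exceptions were Calb1 and Stxbp6. The score was also lower for subiculum (difference −0.55, SD of the other WT mice 0.17), CA2 (−0.46, SD 0.15), pyramidal neurons (−0.41, SD 0.15), CA3 (−0.25, SD 0.17) and CA1 (−0.19, SD 0.17). For thalamus and habenula the difference was −0.87 with an SD of 0.63 among the other WT mice, which include WT 490. WT 522 thus lay more than 2 SDs from the other WT mice in 5 of the 8 lists, only just so in dentate gyrus. It had the lowest score of the 12 mice in 4. Such distances were not particular to WT 522. KO 553 differed from the other USF-1 KO mice by 0.61 in CA3 (SD 0.24), −0.69 in subiculum (SD 0.23) and −0.47 in cortex (SD 0.20). WT 523 differed from the other WT mice by 0.56 in dentate gyrus (SD 0.16). Over single genes WT 522 was the lowest of the 12 mice for 15 of the 36 and the highest for 5. The 14 further cortical genes tested also gave WT 522 the highest score (0.42), with KO 488 next at 0.33. In WT 522, 9 of these 14 genes were above every other WT mouse and 3 were below. The 10 further dentate genes gave WT 522 −0.12, close to the −0.13 and −0.14 of WT 493 and WT 490. For further CA1, CA2 and CA3 genes its differences were smaller, at −0.08, −0.19 and −0.04 (SDs of the other WT mice 0.12, 0.16 and 0.08). Markers of other cell types differed in WT 522 as well. Its oligodendrocyte score was 0.96 lower than the mean of the other WT mice (log2 difference −0.96, 0.513-fold, SD of those mice 0.18), with 10 of 10 genes below every other WT mouse, and its microglia score was 0.31 higher (SD 0.11), with 5 of 6 genes the highest of the 12 mice. The scores of inhibitory neurons, astrocytes and endothelium differed by 0.17, 0.09 and −0.03. The part of these differences in the regional scores of WT 522 was not tested. With 1 such library the differences carry no test.

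The extent to which genes of a list moved together was tested by the correlation of each with an anchor gene of its list over the 12 mice. The anchors were Prox1, Wfs1, Amigo2, Bok, Fn1, Rorb, Tcf7l2 and Neurod6, and p-values came from 100000 permutations, adjusted by Benjamini-Hochberg over the 18220 other genes tested for each anchor. Among the 28 pairs of a gene with its own anchor, r was above 0 in 24, the unadjusted p was under 0.05 in 15, and the adjusted p was under 0.05 in 1. At that threshold 0.236% of all genes were called for Prox1 and 2.55% for Neurod6, and 0% for each of Wfs1, Amigo2, Bok, Fn1, Rorb and Tcf7l2. The counts of 24 and 15 have no such background, since the matching shares over all genes were not computed. They are therefore not read as a result about the lists. The anchor and its partners share a library and its size factor, and r is also given without the 2 mice farthest from the median of the anchor.

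C1ql2 followed Prox1 (r = 0.89, permutation p = 8e-05, adjusted p = 0.0416; Spearman rho = 0.83, permutation p = 0.00162, adjusted p = 0.189). Without WT 522 and WT 523, the mice farthest from the median of Prox1, r was 0.86 with an adjusted p of 0.148, so that the call was lost with 10 mice. Within WT mice r was 0.81 (exact permutation p = 0.0778) and within USF-1 KO mice 0.96 (exact permutation p = 0.00417). Dsp, Lct, Tdo2 and Stxbp6 had r between 0.84 and 0.87 with Prox1 (adjusted p from 0.0629 to 0.0847 by permutation), and Calb1 had 0.36. The genes most like Prox1 in all were Plekha2, Npnt, Ppfia2, Sema5a and Amer3, with r from 0.94 to 0.96, and between 0.90 and 0.95 without the same 2 mice. Sema5a, a semaphorin, is itself 1 of the 10 further dentate genes.

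Rora had the closest relation to Tcf7l2 within the thalamus and habenula list (r = 0.90, permutation p = 0.00013, adjusted p = 0.0673; rho = 0.96, permutation p = 2e-05, adjusted p = 0.0304). Without WT 490 and KO 488 r was 0.78 (adjusted p = 0.349 by permutation), and it was 0.88 within WT mice and 0.95 within USF-1 KO mice (exact permutation p = 0.0181 and 0.0375). Lef1 had r = 0.90, Prkcd 0.84, Zic1 0.80 and Calb2 0.78 with Tcf7l2, and these fell to between 0.53 and 0.73 without the 2 mice, whereas Tac2 had −0.30. Pcp4, listed for CA2, had r = 0.93 with Tcf7l2 (permutation p = 0.0001, adjusted p = 0.0647; rho = 0.85, permutation p = 0.00087, adjusted p = 0.0687) and −0.11 with its own anchor Amigo2. Its r with Tcf7l2 was 0.76 without WT 490 and KO 488, 0.93 within WT mice and 0.95 within USF-1 KO mice (exact permutation p = 0.00833 and 0.0347). The difference between both correlations of Pcp4 was not tested.

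Cux2 followed Rorb (r = 0.89, permutation p = 0.00014, adjusted p = 0.13; rho = 0.83, permutation p = 0.0013, adjusted p = 0.44). Without WT 522 and KO 553 r was 0.75, and it was 0.95 within WT mice and 0.83 within USF-1 KO mice (exact permutation p = 0.00556 and 0.0403). For Fezf2, r with Rorb went from 0.46 to −0.54 without these 2 mice, and for Lamp5 from 0.54 to 0.22, so that their relation to Rorb rested on those mice. The genes most like Rorb were Xylb, Col26a1, Hrh2, the sense-intronic transcript Gm45311 and Rgs6 (r from 0.91 to 0.95, and 0.80 to 0.90 without the 2 mice). WT 522 was the highest mouse for each, as it was for Rorb, by which they were picked. Against the 20 genes of dentate gyrus, CA1, CA2 and CA3, r of Rorb was below 0 for 18, the exceptions being Mpped1 (0.52) and Pcp4 (0.31). The matching share over all genes was not computed, nor was this count taken without WT 522 and KO 553. It is therefore not read as a result about these lists.

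**Figure D4:**
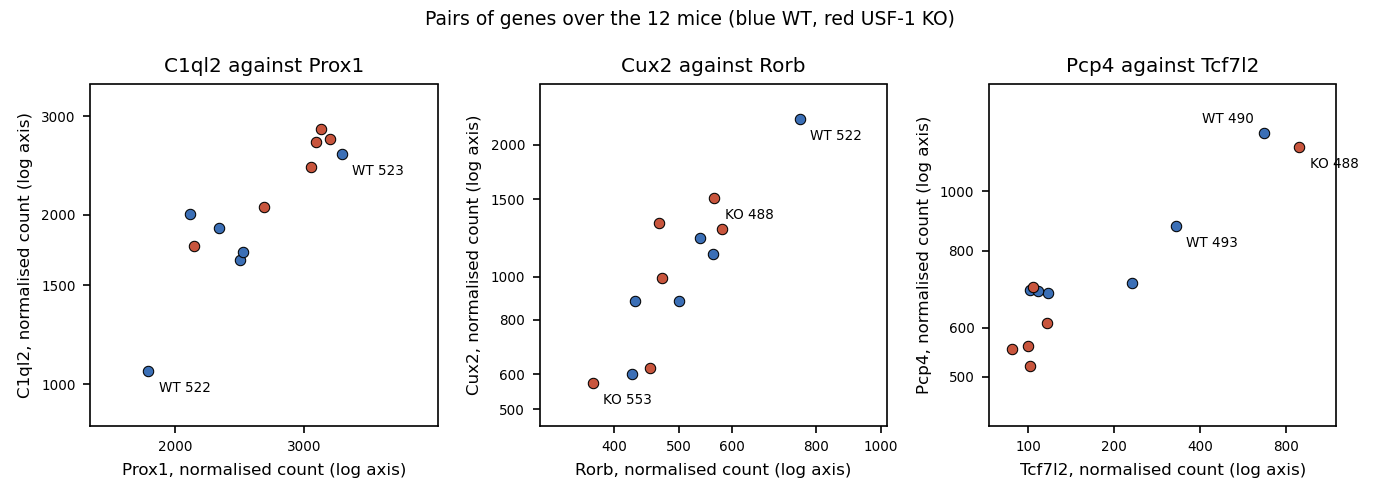
Normalised counts of 3 pairs of genes on log axes, 1 point per mouse, WT in blue and USF-1 KO in red. C1ql2 rises with Prox1 (r = 0.89) with WT 522 at the low end, Cux2 rises with Rorb (r = 0.89) with WT 522 at the high end, and Pcp4 rises with Tcf7l2 (r = 0.93) through WT 490, WT 493 and KO 488.

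In CA3, Cpne4 had r = 0.80 with Bok (permutation p = 0.00214, adjusted p = 0.321; rho = 0.69, permutation p = 0.016, adjusted p = 0.617), Nectin3 0.73 and Iyd 0.70, and without WT 522 and KO 553 these were 0.71, 0.88 and 0.35. Wfs1 had r between −0.03 and 0.41 with the other CA1 genes, and Amigo2 between −0.11 and 0.31 with the other CA2 genes. In the subiculum Nts had r = 0.61 with Fn1 and 0.11 without WT 522 and KO 488, and Tpbg had 0.16. Etv1 had r = −0.05 with Neurod6. Genes of other lists went with Neurod6 more closely. Of the 36 genes, Lct, Pou3f1, Iyd and Cpne4 were called (r from 0.83 to 0.86, adjusted p from 0.032 to 0.0395 by permutation), where 2.55% of all genes were. The call of none of these 4 was kept without WT 522 and KO 488, where r was between 0.77 and 0.81 and the adjusted p between 0.18 and 0.203. With quantile-normalised values the adjusted p of Cpne4 was 0.0703, and the other 3 stayed under 0.05.

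The comparison between genotypes asked whether loss of USF-1 changed the regional make-up of the hippocampal libraries. None of the 36 genes differed between USF-1 KO and WT mice at an adjusted p under 0.05 (limma), where 0.9% of all genes tested were called. Run on recovered reads, edgeR and DESeq2 also called 0 of the 36, against 0.829% and 3.64% of all genes, and the count was 0 without WT 522, where 2.83% were called. At an unadjusted p under 0.05 limma gave 2 of the 36, C1ql2 and Stxbp6, against 13.5% of all genes, and edgeR and DESeq2 gave the same 2. For none of the 36 were the values of the 2 genotypes free of overlap, as they were for 1.5% of all genes. The USF-1 KO mean was higher for 21 and lower for 15 of the 36 genes, and the median log2 fold change was 0.08, against −0.000649 over all genes. The median absolute log2 fold change was 0.14, against 0.08 over all genes. The number of genes with an unadjusted p under 0.05 depended on single mice. Without KO 488 it was 7 (C1ql2, Lct, Prox1, Stxbp6, Pcp4, Rora and Tcf7l2), where 16.9% of all genes had such a p. It was 5 without WT 523 (14.5% of all genes), 3 without WT 547 (13.5%) or KO 482 (14.5%), 1 without WT 490 (10%), KO 530 (11.6%) or KO 564 (11.3%), and 0 without KO 484 (11.8%). Without both WT 490 and KO 488, an alternative chosen after the data were seen, it was 6, where all genes gave 12.6%. With sex as a covariate it was 1, Wfs1, where all genes gave 11.8%.

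All 7 dentate gyrus genes had a higher mean in USF-1 KO mice, with log2 fold changes from 0.15 to 0.44 and a median of 0.24, none of them called. C1ql2 had normalised counts from 1055 to 2567 in WT mice (median 1808) and from 1761 to 2844 in USF-1 KO mice (median 2567). The groups overlapped, with WT 523 above 3 of the USF-1 KO mice, and WT 522 was the lowest. The log2 fold change of C1ql2 was 0.44 (SE 0.18, adjusted p = 0.277 from limma; exact permutation p = 0.0476), 0.30 without WT 522 and 0.37 with sex as a covariate. Stxbp6 ran from 2116 to 2974 in WT mice (median 2270) and from 2178 to 3489 in USF-1 KO mice (median 2794), a log2 fold change of 0.24 (SE 0.10, adjusted p = 0.303 from limma; exact permutation p = 0.0671). WT 523, at 2974, was well above the other WT mice and above 5 of the 6 USF-1 KO mice. Prox1 had a log2 fold change of 0.27 (95% confidence interval −0.02 to 0.55), Lct of 0.39 (−0.12 to 0.90), Tdo2 of 0.18, Dsp of 0.17 and Calb1 of 0.15. The WT mice had a dentate gyrus score of −0.13 ± 0.27 (SD, n = 6), against 0.13 ± 0.28 (SD, n = 6) for the USF-1 KO mice, with ranges that overlapped from −0.33 to 0.33.

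Of the 10 further dentate genes 9 were higher in the USF-1 KO group, with a median log2 fold change of 0.23. Called was 1 of 10, Npy1r, where 0.9% of all genes tested were called. At an unadjusted p under 0.05 limma gave 5 of the 10, against 13.5% of all genes. Npy1r, a receptor of neuropeptide Y, had normalised counts from 634 to 748 in WT mice and from 745 to 916 in USF-1 KO mice (log2 fold change 0.29, SE 0.06, adjusted p = 0.0301 from limma). Only KO 488, at 745, lay inside the WT range. Markers of other cell types differed in mean as well. All 10 oligodendrocyte genes were lower in the USF-1 KO group, with a median log2 fold change of −0.68, and all 10 had an unadjusted p under 0.05 (limma). Of these 1 was called, Ugt8a, an enzyme of myelin galactolipid synthesis (log2 fold change −0.90, SE 0.16, adjusted p = 0.0167 from limma). The summed normalised count of the 10 genes ran from 87815 to 190078 (median 156626) in WT mice and from 75562 to 115431 (median 98805) in USF-1 KO mice, and 0 of the 10 genes were at 0. All 6 microglia genes were lower, with a median of −0.21, 5 at an unadjusted p under 0.05 (limma) and 0 called. The medians of astrocyte and endothelial genes were −0.01 and 0.03. The part of these differences in the dentate values was not tested.

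CA1 genes were higher in USF-1 KO mice in 4 of 5 cases, with a median log2 fold change of 0.17, which was 0.08 without KO 530 and 0.11 without WT 522. Wfs1 had 0.24 (95% confidence interval −0.01 to 0.49), and Mpped1, the exception, had −0.05. In CA2 the median was 0.01, with Pcp4 at −0.27 and Rgs14 at 0.15, and without WT 522 it was −0.13. CA3 genes had a median of 0.09, from −0.02 for Nectin3 to 0.20 for Iyd, and the median was −0.0023 without KO 553, 0.05 without WT 522, 0.04 with sex as a covariate and 0.17 without KO 488. Cpne4, with the E-box, had 0.11 (−0.18 to 0.40). The 3 subiculum genes had 0.06 to 0.16, with a median of 0.09 that was 0.01 without WT 522, 0.02 without KO 488 and 0.19 without KO 553. Neurod6 had 0.09 and Etv1 −0.06. The 95% confidence interval of each of these genes held 0, with upper bounds from 0.14 for Mpped1 to 0.91 for Nts, and a change inside these intervals was not detectable with 6 mice in each genotype.

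The 4 cortical genes were lower in the USF-1 KO group, with a median log2 fold change of −0.10, but without WT 522 the median was 0.04, and it was −0.0054 without KO 553, −0.05 without KO 530, −0.07 with sex as a covariate and −0.17 without KO 484. In thalamus and habenula 6 of 7 genes were lower, with a median of −0.12, which was 0.09 without WT 490, −0.42 without KO 488, −0.18 without both and 0.0027 with sex as a covariate, so that its sign depended on WT 490 and on the covariate. It was −0.32 without WT 547, −0.28 without WT 522 and −0.20 without KO 482, and −0.07, −0.06 and −0.05 without KO 553, KO 530 and WT 573. The genes with an E-box had log2 fold changes of −0.16 for Lef1 (95% confidence interval −0.98 to 0.65), −0.12 for Zic1 (−1.40 to 1.15) and −0.02 for Prkcd (−0.85 to 0.81). Tcf7l2 had −0.46 (−1.71 to 0.79), and Rora had −0.43 (−0.96 to 0.09). WT 490 and KO 488, far above the other mice of their genotype, both enter these intervals.

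**Figure D5:**
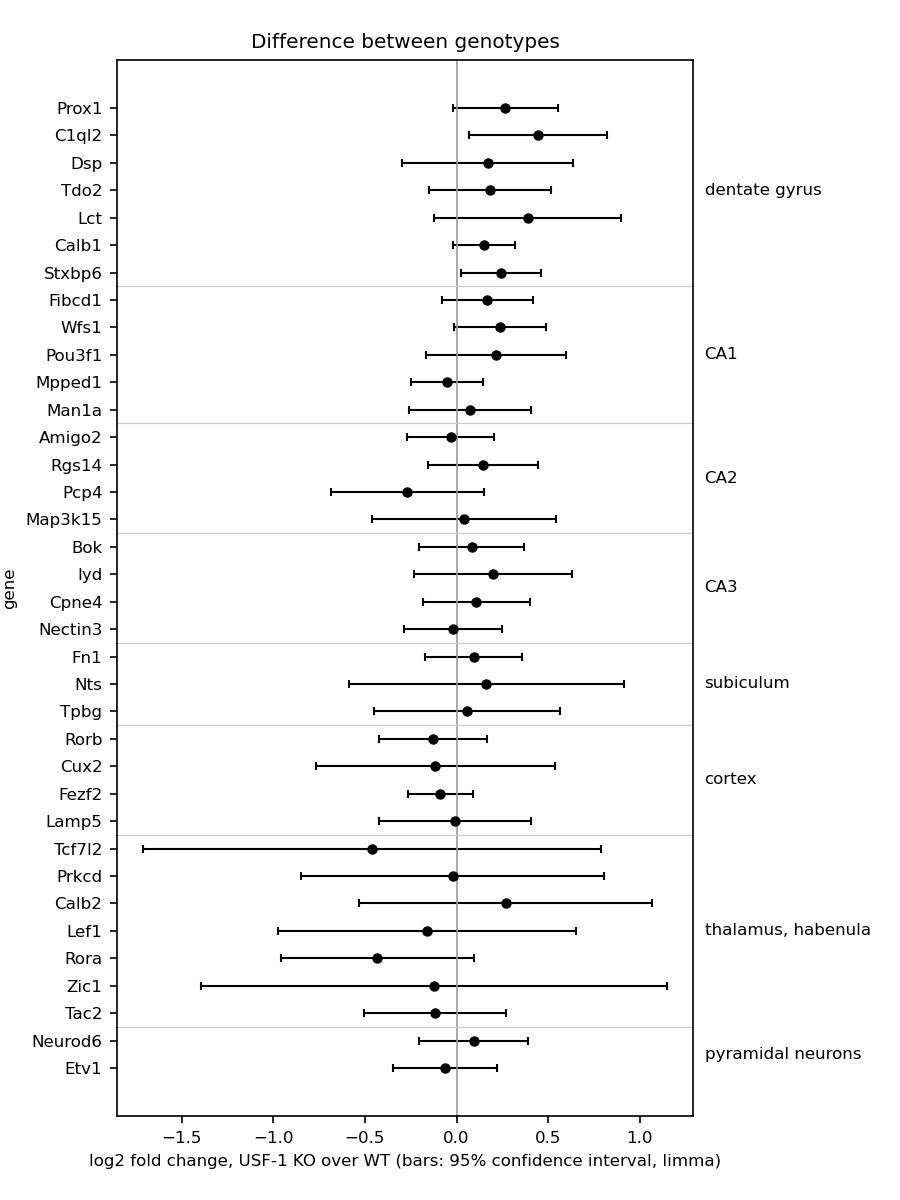
Points give the log2 fold change of each of the 36 genes, USF-1 KO over WT, and bars the 95% confidence interval from limma on 12 mice. The 7 dentate gyrus genes lie between 0.15 and 0.44, and the intervals of Tcf7l2 and Zic1 are the widest.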

How the data were processed

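Hippocampal RNA of 12 mice was sequenced, and genotype and sex were taken from the sample labels. The deposited signal of each gene is the read count of a library scaled by the authors with a DESeq2 size factor. The submitters' processing notes name STAR 2.5.0a, edgeR 3.22.2 and mm10, and the counter and its strand setting are not given in the sources used here. Dividing by the smallest step of a library gave whole numbers for 100% of values (within 0.01), which were taken as reads. No library repeated another (smallest chi-square between a pair, per degree of freedom, 4.24).

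Values were taken as log2(normalised count + 1), and 18221 genes with a mean of at least 10 entered a two-sided comparison of genotypes without covariates in limma (version 3.58.1, R 4.3.3, trended prior variance), with p-values adjusted by Benjamini-Hochberg. Log2 fold changes are on that scale. Exact permutation tests of single genes were two-sided and ran over all assignments of the mice. With nothing in the labels on litters, p-values measure the spread between these mice. Alternatives were other pseudocounts, limits and scalings, an untrended limma fit, a sex covariate, edgeR 4.0.16 and DESeq2 1.42.0 on recovered reads, and leaving out each mouse. Correlations used numpy in Python 3.11.15. The limma, edgeR and DESeq2 comparisons and the permutation test of Pearson r over all mice were checked on simulated data, and the other tests were not. Exon lengths came from GENCODE M21, whose coordinates were those of the table for 99.4% of shared genes.

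The 36 genes, the other lists and the tests were chosen with earlier results of these data known. All 36 are named, with group ranges for the anchor, the 2 genes of each list with the largest SD and those with an unadjusted p under 0.05. Of the other lists, genes with an adjusted p under 0.05 and the 2 with the largest SD over all these lists are named, and for Prox1, Rorb and Tcf7l2 the 5 genes with the highest r.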

Additional observations from a re-analysis of the deposited data

Results flagged for a closer look

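In each genotype the gap of the highest or lowest mouse to its neighbour was set against the whole range of the 6 mice, for the 36 genes and the 8 region scores. Of 88 groups 12 held a mouse apart from the other 5, in every case the highest. For normally distributed values chance flags about 1 in 20 groups, or 4.4. The genes entered as normalised counts without logs, so that 4.4 is only a rough guide. The genes of a list are not independent, so that 1 mouse can give several of them.

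KO 488 accounts for 6 of the 12. It had 893 normalised counts of Tcf7l2, against 87.4 to 117 in the other USF-1 KO mice, 1820 of Prkcd (605 to 994), 308 of Lef1 (70.4 to 147), 1678 of Rora (590 to 860) and 1178 of Pcp4 (521 to 700). Its thalamus and habenula score was 1.24, against −0.65 to 0.04 in the others. WT 490 had 1240 of Pcp4, where the other WT mice had 683 to 877, and its high Tcf7l2 (672) was not set apart in the same way, with WT 493 at 329.

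WT 523 was the highest WT mouse for the dentate genes Dsp, at 2112 against 979 to 1323, and Stxbp6, at 2974 against 2116 to 2362. WT 522 had 2282 of the cortical gene Cux2, against 600 to 1227. KO 484 had 1646 of Lamp5, against 815 to 1030. KO 530 had a CA1 score of 0.44, against −0.10 to 0.08.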

How the results depend on the processing

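The count of 0 of the 36 genes called between genotypes was the same under 24 alternatives, and the lowest adjusted p of any of the genes under them was 0.107, for Stxbp6 without KO 488 (limma). The log2 fold change of C1ql2 stayed between 0.30 and 0.55 and that of Stxbp6 between 0.18 and 0.31. The dentate gyrus median kept its direction, between 0.20 and 0.33, as did that of CA1, between 0.08 and 0.21, while the medians of the CA2 (−0.13 to 0.08), CA3 (−0.0023 to 0.17), subiculum (−0.07 to 0.19), cortex (−0.17 to 0.04), thalamus and habenula (−0.42 to 0.09) and pyramidal neuron lists (−0.05 to 0.07) crossed 0. The deviation of WT 522 kept its direction in 8 of 8 lists under the alternatives run, with a range of 0.70 to 0.80 for cortex and −0.49 to −0.34 for dentate gyrus. Quantile normalisation moved the median of all genes between genotypes by 0.03, and rescaling to the same total moved it by 0.0036. Among the 28 pairs of a gene with its anchor the number called went from 1 to 0 with quantile normalisation, where the adjusted p of C1ql2 with Prox1 was 0.0547, and to 0 without the 2 mice farthest from the median, where fewer mice were tested. With a pseudocount of 5 it was 1. The alternatives without WT 490 and KO 488, and without these and WT 522, were chosen after the data were seen. No paired analysis was possible because the labels do not give the litter of each mouse or any other pairing.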

Other observations

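Lists of other tissues near the hippocampus gave further values per mouse. The 12 striatal and septal genes had scores from −0.66 in KO 530 to 0.52 in KO 488 and WT 523. Between genotypes 0 of the 12 were called (limma), where 0.9% of all genes tested were. At an unadjusted p under 0.05 limma gave 2 of the 12, against 13.5% of all genes. The 10 hypothalamic genes were mostly below the limit, with 3 tested. Choroid plexus genes had a score of 5.31 in WT 493 and 4.03 in WT 490 and −1.88 in WT 522. WT 490 was thus high for choroid plexus and thalamic genes, WT 493 higher than WT 490 for choroid plexus genes (5.31) and lower for thalamic ones (0.47), and KO 488 high for thalamic genes (1.24) with a choroid plexus score of 0.04. Inhibitory neuron genes had scores from −0.16 to 0.18 and astrocyte genes from −0.14 to 0.10, narrower than those of any of the 8 regional lists. Further genes of the hippocampal fields also spread little. Their scores ranged over 0.345 for CA1, 0.421 for CA2, 0.433 for CA3 and 0.489 for dentate gyrus, against 0.341 for inhibitory neurons. Oligodendrocyte scores ranged over 1.37, wider than every regional list but thalamus and habenula, and microglia scores over 0.59. The lists differ in their number of genes, so these ranges do not rank regional against cell type lists. The 5 mossy cell genes tested had a score of 0.51 in KO 488, 0.32 in KO 482 and −0.37 in KO 530.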
